A study of Mus musculus with 34 samples.

Results

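The comparison described here is the step that takes wild-type mouse embryonic stem cells (ESCs) out of naive pluripotency, between the undifferentiated state and day 3 of differentiation with bone morphogenetic protein 4 (BMP4). It was chosen by the sample labels: 3 wild-type F1(G4) libraries of day 3 and 3 wild-type F1(G4) libraries of ESCs, 6 of the 30 RNA libraries in the deposited table and 6 of the 34 samples in the series. F1(G4) is a hybrid line of strain 129S2/C57Bl6J. The day 3 cells had been aggregated overnight in hanging drops with serum, washed, and grown on a fibronectin coat without serum, with BMP4 at 20 ng/mL and daily changes of medium. The ESCs were undifferentiated cells kept in 2i medium after feeder cells had been removed by repeated plating. The same step is also available in Hdn mutant cells of the same strain, labelled null for Hdn (Handsdown, a long non-coding RNA), with 3 day 3 and 3 ESC libraries, and it serves below as the point of comparison. The series' design text speaks of Brachyury mutants and the growth protocol of dissected hearts, which conflict with the titles; titles, genotype labels and treatment protocol were followed. The labels do not state whether replicates were separate cultures, nor how many mutant clones were used. The SEs and p-values rest on the spread between replicate libraries, which may be technical. That spread was pooled over all 10 groups of 3 RNA libraries, mutants and later days included, not taken from the 6 libraries alone.

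Naive ESCs correspond to the preimplantation epiblast. In 2i medium, inhibitors of the kinases MEK and GSK3 block ERK signalling and sustain Wnt pathway output, and a circuit of transcription factors around Nanog, Klf4, Esrrb and Tfcp2l1 keeps the cells self-renewing. On release, cells pass through a formative, epiblast-like state marked by Otx2, Pou3f1 and Fgf5 before they become competent for germ layers, and BMP4 acts through SMAD1/5 to induce Id genes, extraembryonic and mesodermal programmes.

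Values are scaled RPKM, the authors' RPKM (reads corrected for gene length and library depth) divided by 1 size factor per library, and are listed for replicates 1, 2 and 3 in that order. Of 52636 genes in the table, 14196 reached 1 scaled RPKM in at least 3 of the 30 libraries and were tested with limma; a gene is said to have risen or fallen on day 3 where the Benjamini-Hochberg adjusted p was under 0.05 and the log2 change was at least 1 in size. Log2 changes are of scaled RPKM + 0.5 and understate the change of low genes; a number that follows a gene in brackets without a unit is its log2 change, day 3 over ESC. Read totals, recovered from the RPKM values, were 52999674 to 68448589 per library on day 3 and 46232728 to 52265361 in ESCs. Log2 values correlated at 0.9875 to 0.9968 between libraries of 1 stage and at 0.8158 to 0.8607 between stages, across genes, which are not independent replicates. Hdn itself had 0 reads in each of the 6 mutant libraries, and 2, 4 and 0 reads on day 3 and 0 reads in each ESC library of the wild type, so that at these stages it cannot check the genotype labels.

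Both stages held libraries that stood apart. Day 3 replicate 1 was the lowest of its group for 16 of 20 primitive streak genes and the highest for 15 of 18 naive pluripotency genes, against 30.9% and 33.4% of all genes tested. It also carried more transcript of other cell types: the fibroblast collagen Col3a1 was at 1.97, 0.0155 and 0.0198 on day 3 and 0.022, 0.354 and 0.377 in ESCs. The adult beta-globin Hbb-bs was at 1.44, 0 and 0.0194 on day 3 and 0, 0.254 and 0.261 in ESCs. The fibroblast matrix genes Col1a2, Dcn and Lum were likewise highest in day 3 replicate 1 and lower in ESC replicates 2 and 3. The summed level of the 12 fibroblast markers was 32.6 to 43.6 scaled RPKM on day 3 and 49.5 to 58.5 in ESCs, of which Fbln1 was 17.5, 11.5 and 12.8 on day 3 and 56.8, 55.9 and 46.7 in ESCs, and none of the 12 was at 0 in all 3 libraries of either stage. Of the 9 tested, Col1a1, Thy1 and Loxl1 rose and Fbln1 fell. The part of these transcripts in the results was not tested; without day 3 replicate 1, 2459 genes rose and 2898 fell. Among wild-type ESCs, replicate 3 was the lowest of its group for 47.3% of all genes tested, and replicates 1 and 2 for 26.1% and 26.6%. It was also the highest for 14 of 15 mitochondrially encoded genes, against 35.4% of all genes tested. The wild-type ESC libraries as a group stood apart in mitochondrially encoded transcripts and in those of the Y-linked Eif2s3y, described near the end.

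Between ESCs and day 3 more than 1 gene in 3 changed. On day 3, 2471 genes were higher, 17.4% of those tested, and 2883 were lower, 20.3%. Of these, 204 rose and 231 fell by a log2 change of at least 3, and 25 rose and 19 fell by at least 5. Among the 5354 genes called, 5264 had day 3 and ESC values that did not overlap; so did 11388 of all 14196 tested (80.2%), so separation alone marked no gene out. With every library scaled to the same sum, which moves the median change of all genes by -0.19 on the log2 scale, the split was 1907 higher and 3547 lower.

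**Figure D1:**
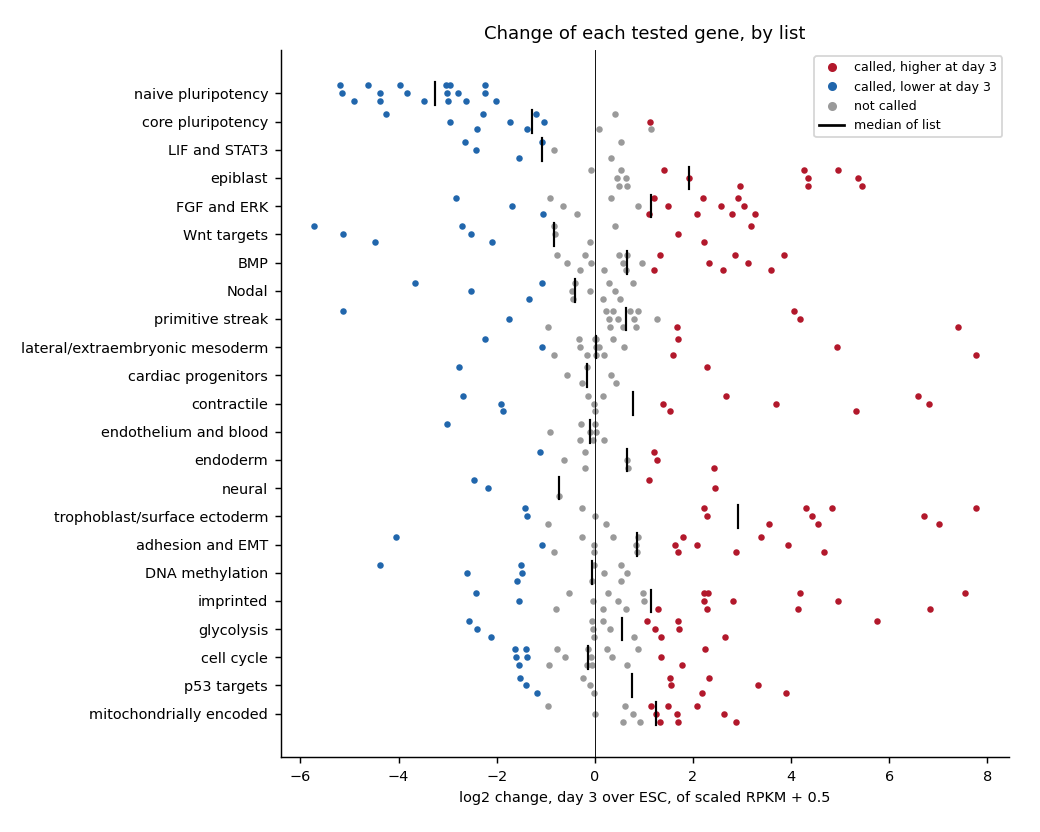
Log2 change of scaled RPKM + 0.5, day 3 over ESC, of each tested gene in 23 lists (points; red higher and blue lower where called, grey not called), with the median of the list as a black bar. All 18 naive pluripotency genes lie left of -2, while trophoblast and surface ectoderm genes reach 7.76.

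Every gene of the naive pluripotency list, which was chosen with earlier results of these data known, was lower on day 3. All 18 listed genes were tested and fell, where 20.3% of all genes tested fell (median log2 change -3.26, against 0 over all genes tested). Nanog, a homeodomain factor that stabilises self-renewal, was at 77.5, 55.6 and 60.6 scaled RPKM on day 3, against 364, 389 and 435 in ESCs  (log2 change -2.62, SE 0.25, adjusted p = 1.5e-09). The orphan nuclear receptor Esrrb was at 6.95, 2.95 and 3.49 scaled RPKM on day 3, against 174, 180.2 and 144 in ESCs (log2 change -5.15, SE 0.29, adjusted p = 1.4e-13). Tfcp2l1, a factor downstream of LIF and Wnt signals, was at 2.35, 0.863 and 0.882 scaled RPKM on day 3, against 62.0, 70.5 and 58.4 in ESCs (-5.19, adjusted p = 1.5e-15). In these genes the day 3 and ESC libraries were separated by a wide margin, with day 3 replicate 1 the highest of the 3 day 3 libraries. Klf4 averaged 2.37 ± 1.26 on day 3 and 66.9 ± 9.55 in ESCs, and Klf5 4.06 ± 1.67 on day 3 and 62.5 ± 14.2 in ESCs (SD, n = 3 each). Klf2, a Krüppel-like factor stabilised by MEK inhibition, averaged 93.8 ± 17.6 on day 3 and 668 ± 210.4 in ESCs (SD, n = 3 each). Per length, Klf2 on day 3 was thus more abundant than Klf4 in ESCs. Prdm14 (-4.38), which represses de novo methylation, and the nuclear receptor genes Nr0b1 (-4.92) and Nr5a2 (-2.95) fell too. The least change in the list was of Dppa5a, an RNA-binding protein of pluripotent cells, at 1219.5, 883 and 731 scaled RPKM on day 3, against 3758, 3465 and 4014 in ESCs (log2 change -2.02). In bulk RNA, fewer cells in the naive state and less RNA per cell cannot be told apart.

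Zfp42, also called Rex1, is a zinc-finger marker of naive cells and was the 1 of 12 naive genes with a promoter in the RefSeq table whose promoter held the octamer, the letters bound by POU factors such as Oct4. It was at 17.8, 13.8 and 13.9 scaled RPKM on day 3, against 126, 124 and 132 in ESCs (log2 change -3.04, SE 0.16, adjusted p = 5.1e-14), with no overlap between stages, as for 80.2% of all genes tested. Its promoter is shown for that match; it comes from RefSeq (GRCm38.p6, chr8:43306960-43307259, minus strand, 250 bases before to 50 after the gene start), with ATTTGCAT, 186 bases before the start, in capitals.
Zfp42: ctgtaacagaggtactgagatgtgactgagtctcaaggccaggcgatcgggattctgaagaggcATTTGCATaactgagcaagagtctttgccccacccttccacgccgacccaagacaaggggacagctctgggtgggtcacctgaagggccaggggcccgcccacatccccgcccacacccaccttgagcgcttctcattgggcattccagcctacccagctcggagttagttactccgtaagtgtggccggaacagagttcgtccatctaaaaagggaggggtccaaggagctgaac
Of all tested genes with a promoter in that table, 1.37% held ATTTGCAT on either strand; no promoter of the list held TCAAGGTCA, the letters bound by Esrrb, or GGGTGTGGC, letters bound by Krüppel-like factors. The table matched 9545 of 14196 tested genes, 1452 of 2471 that rose and 1992 of 2883 that fell, under 80%, so a comparison of promoters between risen and fallen genes is void.

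The core pluripotency genes shared with the epiblast were lower by less, and not uniformly. Of 12 tested, 8 fell, 1 rose and 3 were not called (median -1.29), where 20.3% of all genes tested fell and 17.4% rose. Pou5f1, which encodes Oct4, was at 156, 149 and 161 scaled RPKM on day 3, against 378, 357 and 342 in ESCs (log2 change -1.20, SE 0.20, adjusted p = 7.7e-06). Sox2, its DNA-binding partner, was at 33.1, 16.2 and 21.4 scaled RPKM on day 3, against 189, 203 and 149.8 in ESCs (log2 change -2.96, adjusted p = 0.00041). Both were clearly below ESCs in each day 3 library, Pou5f1 by about the size of the threshold and Sox2 by far more. Fgf4, the growth factor that ESCs secrete to drive their own differentiation, was at 8.84, 4.67 and 4.69 scaled RPKM on day 3, against 119.6, 127 and 112 in ESCs (-4.25). Trim28, a corepressor of retroelements, was at 279, 242 and 299 scaled RPKM on day 3, against 979, 1010.0 and 760.4 in ESCs (-1.74). Lin28a, which blocks let-7 maturation, rose to 94.1, 83.1 and 86.7 on day 3, against 37.1, 43.1 and 40.1 in ESCs (1.12); with the same sum it was 0.89 and not called. Utf1, a chromatin factor of pluripotent cells, was at 880.0, 750.2 and 780.1 scaled RPKM on day 3, against 402, 419.5 and 284 in ESCs without passing the test (adjusted p = 0.052). Nor did Tdgf1, the Nodal co-receptor, at 198, 153 and 183 scaled RPKM on day 3, against 126, 131 and 141 in ESCs (adjusted p = 0.058). These outcomes depend on the setting: 2 core genes rose without scaling or with only the 6 libraries fitted, and 0 with the same sum. The Sall4 fall (-1.05) was lost without ESC replicate 2 (-0.95).

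LIF and STAT3 signalling sustains naive cells in culture. Of its 7 listed genes 4 fell and none rose (median -1.09), where 20.3% of all genes tested fell and 17.4% rose. The feedback inhibitor Socs3 was at 11.3, 10.1 and 12.8 scaled RPKM on day 3, against 78.8, 85.0 and 59.0 in ESCs (-2.64). Stat3 was at 1.90, 1.92 and 2.34 scaled RPKM on day 3, against 13.5, 14.3 and 12 in ESCs (-2.43). The receptor subunits Il6st and Lifr fell by 1.55 and 1.09 on the log2 scale. With a pseudocount of 1, Lifr was -0.84 and not called.

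**Figure D2:**
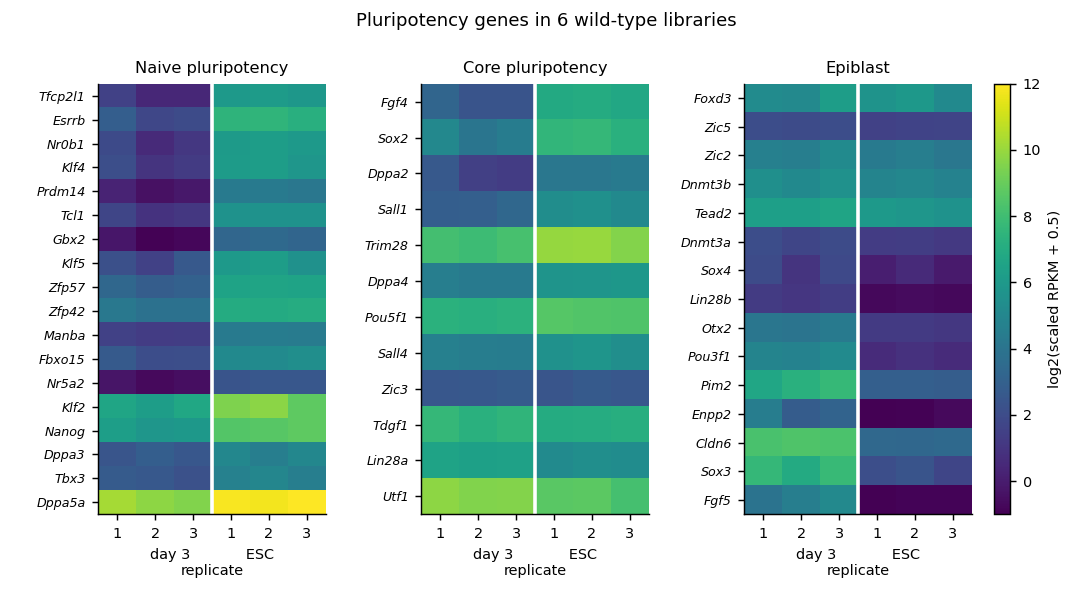
Log2(scaled RPKM + 0.5) of the 18 naive, 12 core and 15 epiblast genes in the 3 day 3 libraries (left of the white line) and the 3 ESC libraries (right), each list sorted by log2 change. Naive genes are darker on day 3 in each row; of the epiblast genes, Fgf5, Sox3 and Cldn6 are brighter on day 3 than in ESCs.

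Genes of the formative and primed epiblast were higher on day 3 or not called. Of 15 tested, 9 rose, 0 fell and 6 were not called (median 1.92), where 17.4% of all genes tested rose. Fgf5, the growth factor that marks the postimplantation epiblast, was at 14.9, 23.2 and 34.0 scaled RPKM on day 3, against 0.00861, 0.0434 and 0.0535 in ESCs (log2 change 5.44, SE 0.41, adjusted p = 2.6e-11). It was near 0 in each ESC library, and on day 3 replicate 3 was the highest. Sox3, a SOXB1 factor of the epiblast and neural plate, was at 199, 124 and 213 scaled RPKM on day 3, against 3.89, 4.72 and 2.77 in ESCs (log2 change 5.37, SE 0.73, adjusted p = 6.6e-07). Sox3 thus stood several times above Sox2 on day 3, whereas Sox2 stood far above Sox3 in ESCs, in per-length units. The POU factor Pou3f1, also called Oct6, was at 28.8, 26.3 and 36.6 scaled RPKM on day 3, against 1.01, 1.34 and 1.00 in ESCs (4.26). Otx2, the homeodomain factor that starts the formative state, was at 16.7, 15.7 and 19 scaled RPKM on day 3, against 1.82, 1.82 and 1.63 in ESCs (2.96). Both groups were tight and apart. The tight junction gene Cldn6 averaged 324 ± 21.5 on day 3 and 10.00 ± 0.235 in ESCs (4.95), and the kinase gene Pim2 156 ± 53.5 on day 3 and 6.93 ± 0.361 in ESCs (4.34; SD, n = 3 each). Not called were Foxd3 (-0.07), Zic2 (0.50), Zic5, Tead2 and the methyltransferase genes Dnmt3a (0.66) and Dnmt3b (0.52). Over the wild-type course, Fgf5 averaged 0.0352 ± 0.0236 in ESCs, 24 ± 9.61 on day 3, 10.6 ± 1.68 on day 4, 2.61 ± 1.20 on day 5 and 0.526 ± 0.256 on day 6, and Sox3 was likewise at its highest mean of the course on day 3.

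**Figure D3:**
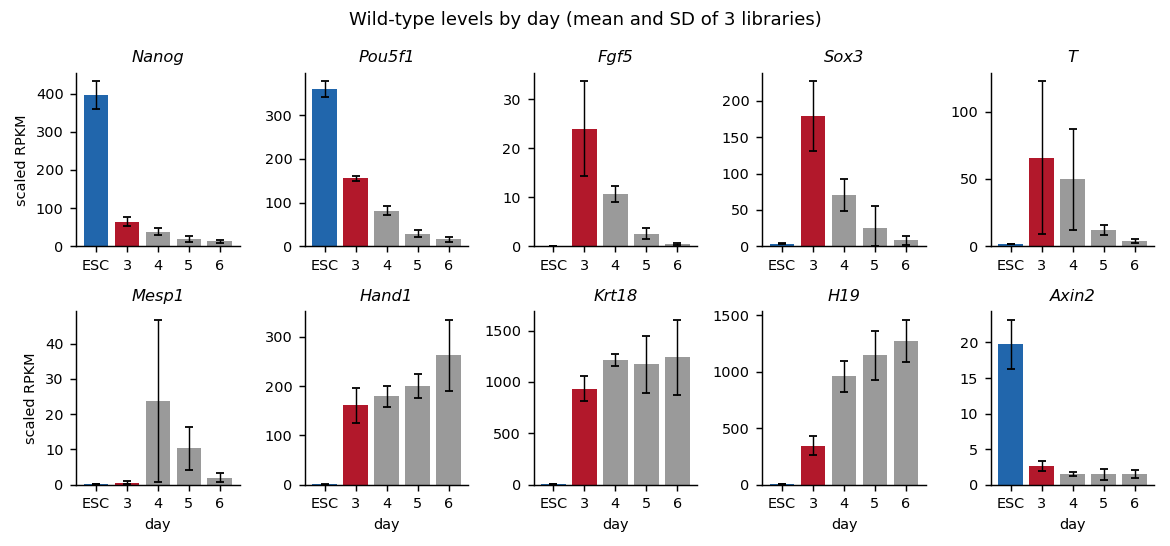
Scaled RPKM (bars, mean of 3 libraries; lines, SD) of 10 genes in wild-type ESCs (blue), on day 3 (red) and on days 4, 5 and 6 (grey). Fgf5, Sox3 and T have their highest mean on day 3, Mesp1 on day 4, and Hand1, Krt18 and H19 stay high to day 6; every axis starts at 0.

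Targets of FGF and ERK signalling, which 2i medium holds down, were higher on day 3 more often than lower. Of 18 tested, 10 rose, 3 fell and 5 were not called (median 1.15). Of all genes tested, 17.4% rose and 20.3% fell. The ERK phosphatase Dusp6 was at 22.2, 21.9 and 36.1 scaled RPKM on day 3, against 3.11, 3.75 and 3.11 in ESCs (log2 change 2.80, SE 0.36, adjusted p = 2.4e-07). Its relative Dusp4 was at 11.5, 12.2 and 20.3 scaled RPKM on day 3, against 0.857, 1.27 and 0.977 in ESCs (3.27). The immediate-early factor Egr1 was at 2.31, 2.88 and 4.91 scaled RPKM on day 3, against 0.0769, 0.121 and 0.189 in ESCs (2.57), and Fos at 3.10, 5.76 and 5.35 scaled RPKM on day 3, against 0.147, 0.203 and 0.19 in ESCs (2.91). All 4 genes were higher in every day 3 library than in any ESC library. Of all genes tested, 80.2% had stages that did not overlap. The ETS factors Etv5, at 42.4, 36.5 and 44.2 scaled RPKM on day 3, against 132, 145 and 123 in ESCs (-1.69), and Etv4 (-1.06) fell, as did the ligand Fgf3 (-2.83). The Etv4 call was lost without ESC replicate 1 (-0.99), ESC replicate 2 (-0.99) or day 3 replicate 2 (-0.88), and that of Myc (1.09) without ESC replicate 3 (0.98) or day 3 replicate 3 (0.89). Of the Sprouty feedback inhibitors Spry1 rose (2.20), and Spry2 (-0.92) and Spry4 (0.33) were not called.

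Wnt target genes split. Of 16 listed, 13 were tested, 6 fell, 3 rose and 4 were not called (median -0.83), against 20.3% and 17.4% of all genes tested. The secreted Wnt inhibitor Notum was at 1.44, 0.281 and 0.347 scaled RPKM on day 3, against 60.8, 59.9 and 51.1 in ESCs (log2 change -5.73, SE 0.30, adjusted p = 3e-14), 1 of the largest falls of the whole step. Axin2, a direct target and scaffold of the destruction complex, was at 2.83, 1.85 and 3.13 scaled RPKM on day 3, against 20.2, 23 and 16.1 in ESCs (log2 change -2.71, SE 0.24, adjusted p = 4.6e-10). The caudal factor Cdx1 was at 3.18, 1.86 and 2.02 scaled RPKM on day 3, against 105, 114 and 76.9 in ESCs (-5.13). Sfrp1 averaged 3.78 ± 2.04 on day 3 and 89.4 ± 8.55 in ESCs (-4.49; SD, n = 3 each). In each of these the stages were far apart. The secreted inhibitor Dkk1 rose, at 14.1, 14.6 and 9.74 scaled RPKM on day 3, against 0.843, 1.02 and 0.956 in ESCs (3.19). Nkd1 (1.69) and Ascl2 (2.22) rose too, so listed targets moved in opposite directions. Lgr5, Rnf43 and Wif1 stayed under the filter, each near 0 in the 6 libraries apart from Rnf43 at 0.312, 0.317 and 0.38 scaled RPKM on day 3, against 0.181, 0.205 and 0.112 in ESCs. The zinc-finger target Sp5 was at 5.58, 8.79 and 19.9 scaled RPKM on day 3, against 66.2, 75.6 and 43.4 in ESCs (log2 change -2.53, SE 0.71, adjusted p = 0.0029), with day 3 replicate 3 the nearest to ESCs. Its promoter was the only 1 of 8 Wnt target promoters in the RefSeq table with CTTTGAT (either strand), the TCF/LEF letters, which 2.45% of all tested promoters held. It is printed with that match in capitals, 104 bases before the start (GRCm38.p6, chr2:70474673-70474972, plus strand).
Sp5: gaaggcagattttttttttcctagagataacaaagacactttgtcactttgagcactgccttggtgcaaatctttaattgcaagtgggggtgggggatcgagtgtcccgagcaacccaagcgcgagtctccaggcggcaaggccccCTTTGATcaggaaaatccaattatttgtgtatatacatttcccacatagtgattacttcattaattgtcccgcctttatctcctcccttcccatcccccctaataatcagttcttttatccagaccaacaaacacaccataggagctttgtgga

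BMP pathway genes were higher on day 3 or not called. Of 20 listed, 19 were tested, 8 rose, 0 fell and 11 were not called (median 0.66), against 17.4% and 20.3% of all genes tested. Id1, an inhibitor of basic helix-loop-helix factors and a direct SMAD target, was at 89.4, 74.6 and 50.6 scaled RPKM on day 3, against 7.75, 7.31 and 7.83 in ESCs (log2 change 3.11, SE 0.26, adjusted p = 2.7e-10). Id3 was at 31.4, 45.2 and 35.5 scaled RPKM on day 3, against 15.1, 15.2 and 13.4 in ESCs (1.32). The homeobox target Msx2 was at 20.5, 21.2 and 14.6 scaled RPKM on day 3, against 0.92, 0.827 and 0.714 in ESCs (3.85), and Msx1 also rose (2.33). All these groups were apart, as in 80.2% of all genes tested. So were those of Gata2, at 5.59, 9.01 and 6.66 scaled RPKM on day 3, against 0.519, 0.667 and 0.438 in ESCs (2.85). Among extracellular regulators, the BMP antagonist Noggin (Nog) was at 7.72, 7.36 and 8.33 scaled RPKM on day 3, against 0.191, 0.205 and 0.184 in ESCs (log2 change 3.58, SE 0.38, adjusted p = 1.1e-08). The antagonist Chrd was at 0.177, 0.238 and 0.365 scaled RPKM on day 3, against 0.952, 0.773 and 0.672 in ESCs and was not called (-0.78). The ligand gene Bmp4 was at 2.10, 2.95 and 2.78 scaled RPKM on day 3, against 1.47, 1.90 and 1.19 in ESCs (adjusted p = 0.15). The inhibitory SMADs Smad6 (0.97) and Smad7 (-0.20) were not called. Of the listed BMP genes, 12 had a promoter in the RefSeq table and 6 of them held GGCGCC, a palindrome bound by SMAD1/5, as did 22% of all tested promoters. The 6 were Id2, Id4, Smad9, Bmpr1a, Bmpr2 and Chrd, and the promoters of the 2 that rose are shown, with the match in capitals. Id2 was at 9.96, 10.6 and 6.73 scaled RPKM on day 3, against 1.12, 0.996 and 1.04 in ESCs (log2 change 2.60, SE 0.18, adjusted p = 4.4e-12), and its match lay 231 bases before the start (GRCm38.p6, chr12:25096043-25096342, minus strand). The receptor gene Bmpr1a was at 7.15, 6.98 and 6.33 scaled RPKM on day 3, against 2.37, 2.68 and 2.99 in ESCs (log2 change 1.21, SE 0.21, adjusted p = 1.9e-05), and its match lay 198 bases before the start (GRCm38.p6, chr14:34502497-34502796, minus strand).
Id2: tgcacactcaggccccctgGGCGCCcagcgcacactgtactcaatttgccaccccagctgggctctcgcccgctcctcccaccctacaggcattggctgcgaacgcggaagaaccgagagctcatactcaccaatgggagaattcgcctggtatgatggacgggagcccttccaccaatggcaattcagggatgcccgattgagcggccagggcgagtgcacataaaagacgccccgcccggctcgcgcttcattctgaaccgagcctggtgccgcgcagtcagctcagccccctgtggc
Bmpr1a: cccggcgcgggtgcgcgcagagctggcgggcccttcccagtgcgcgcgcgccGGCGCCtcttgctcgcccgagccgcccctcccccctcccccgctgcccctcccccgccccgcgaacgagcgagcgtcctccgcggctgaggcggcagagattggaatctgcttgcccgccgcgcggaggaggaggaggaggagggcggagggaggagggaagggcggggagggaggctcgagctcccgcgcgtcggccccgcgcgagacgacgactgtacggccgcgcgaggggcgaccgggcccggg
The Bmpr1a change was 0.997 and not called with libraries scaled to the same sum.

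Nodal signalling, which patterns the epiblast, showed 4 falls among 13 tested genes reported here (median -0.40), and 9 were not called. Of all genes tested 20.3% fell. The inhibitor Lefty2 was at 10.4, 7.30 and 10.2 scaled RPKM on day 3, against 123, 123 and 121 in ESCs (log2 change -3.66, SE 0.32, adjusted p = 4.9e-10). The ligand Gdf3 was at 26.4, 13.6 and 12.7 scaled RPKM on day 3, against 99.4, 97.0 and 96.2 in ESCs (-2.52). Lefty1 was at 75.7, 18.8 and 21.3 scaled RPKM on day 3, against 76.0, 65.2 and 60.1 in ESCs: day 3 replicate 1 was at the ESC level and the others well below it. Its call (-1.08) was lost without ESC replicate 1 (-0.99), day 3 replicate 2 (-0.72) or day 3 replicate 3 (-0.81) and with only the 6 libraries fitted. Nodal itself was not called (-0.47).

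Of 20 listed primitive streak genes, 18 were tested, 4 rose, 2 fell and 12 were not called (median 0.64). These counts lie near the 17.4% and 20.3% of all genes tested that rose and fell, so they set the list apart in neither direction. Fgf8, a streak growth factor, was at 83.9, 128 and 178 scaled RPKM on day 3, against 0.144, 0.305 and 0.264 in ESCs (log2 change 7.41, SE 0.43, adjusted p = 2.8e-13). Wnt3, the ligand that starts the streak, was at 6.34, 9.76 and 13 scaled RPKM on day 3, against 0.126, 0.0705 and 0.087 in ESCs (log2 change 4.05, SE 0.31, adjusted p = 3e-11). Both were near 0 in ESCs and apart in every library. T, the Brachyury T-box factor of the streak, was at 9.40, 65.0 and 123 scaled RPKM on day 3, against 1.77, 2.15 and 1.71 in ESCs (log2 change 4.19, SE 0.71, adjusted p = 1.5e-05); its day 3 libraries were spread widely, with replicate 1 the lowest. Evx1, a homeobox gene of the posterior streak, was at 1.64, 6.69 and 12.6 scaled RPKM on day 3, against 1.30, 1.62 and 1.12 in ESCs (1.68), and its call was lost without ESC replicate 1 (1.66), ESC replicate 3 (1.59), day 3 replicate 2 (1.53) or day 3 replicate 3 (1.10). The T-box factor Eomes was at 1.60, 3.31 and 6.4 scaled RPKM on day 3, against 1.68, 1.85 and 1.55 in ESCs. The homeobox gene Mixl1 was at 0.35, 1.07 and 1.83 scaled RPKM on day 3, against 0.348, 0.851 and 0.535 in ESCs. The receptor gene Aplnr was at 0.0671, 1.15 and 1.43 scaled RPKM on day 3, against 0, 0.00586 and 0.0121 in ESCs. None of the 3 passed, and each was lowest on day 3 in replicate 1. Without that library 7 of the 18 rose, Eomes (1.23), Snai1 (1.07) and Aplnr (1.82) being added, and T rose by 5.25. Mesp1, which specifies cardiac mesoderm, was at 0, 0.77 and 0.936 scaled RPKM on day 3, against 0.0507, 0.051 and 0.0175 in ESCs and was not called; its wild-type mean was 0.569 ± 0.499 on day 3 and 23.8 ± 23 on day 4. The organiser gene Gsc fell to 1.40, 1.63 and 2.49 on day 3, against 8.04, 7.65 and 6.09 in ESCs (-1.75). Of 13 streak genes with a promoter in the RefSeq table, Mesp1, Mesp2 and Evx1 held AGGTGTG on either strand, the T-box letters, as did 4.34% of all tested promoters. Foxa2, of the anterior streak and endoderm, rose with the same order of libraries, 1.21, 3.74 and 8.57 scaled RPKM on day 3, against 0.318, 0.247 and 0.207 in ESCs (2.42).

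**Figure D4:**
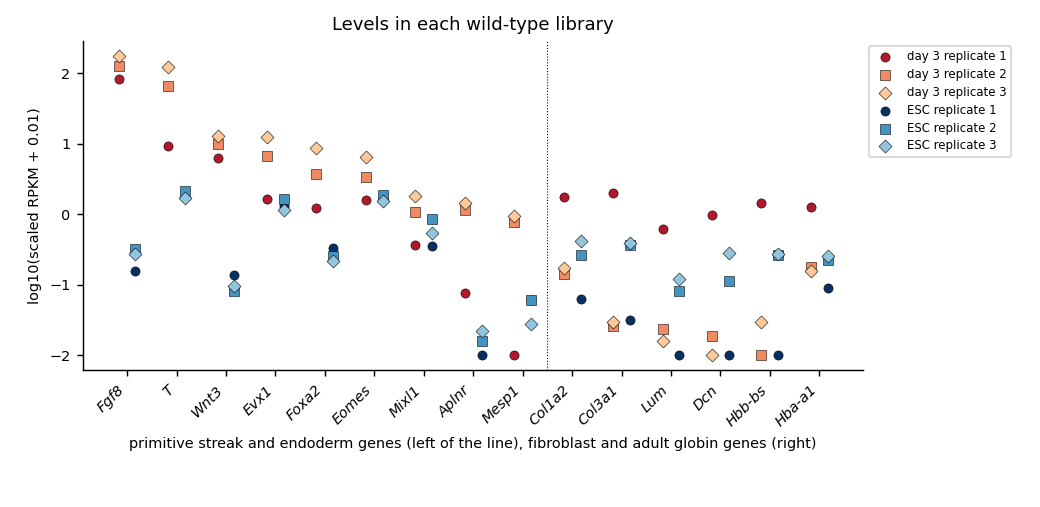
Log10(scaled RPKM + 0.01) of 9 primitive streak and endoderm genes and 6 fibroblast and adult globin genes in each day 3 library (red to orange, left of each pair) and each ESC library (blue, right). Day 3 replicate 1 (dark red circle) is the lowest day 3 library for the 9 genes on the left and the highest for the 6 on the right.

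Hand1 and simple-epithelium keratins led the rises among trophoblast and surface ectoderm genes. Of 20 listed, 16 were tested, 10 rose, 2 fell and 4 were not called (median 2.91), against 17.4% and 20.3% of all genes tested. Hand1, a basic helix-loop-helix factor of trophoblast and extraembryonic mesoderm, was at 133, 202 and 148 scaled RPKM on day 3, against 0, 0.293 and 0.491 in ESCs (log2 change 7.76, SE 0.28, adjusted p = 3.7e-17), from 13863, 23775 and 19876 reads on day 3 and 0, 27 and 44 reads in ESCs. ESC replicates 2 and 3, which held its ESC reads, also had the higher Col3a1 and Hbb-bs values among ESCs. Any link between these was not tested. The simple-epithelium keratin Krt18 was at 857, 1076 and 869.9 scaled RPKM on day 3, against 6.03, 6.97 and 7.30 in ESCs (log2 change 7.0, SE 0.23, adjusted p = 1.1e-17). Its partner Krt8 was at 927, 1056 and 917 scaled RPKM on day 3, against 46.6, 48.8 and 39.5 in ESCs (log2 change 4.41, SE 0.20, adjusted p = 2.1e-15). The Krt18 and Krt8 values of the stages were far apart. Krt19 was at 104, 204 and 176 scaled RPKM on day 3, against 0.685, 1.33 and 1.01 in ESCs (6.71). Krt7 was at 14.6, 19.7 and 15.8 scaled RPKM on day 3, against 0.281, 0.221 and 0.199 in ESCs (4.54). For these keratins every day 3 value was far above every ESC value. Gata3 (2.28), Dlx3 (3.54), Wnt6 (4.84) and the placental gene Plac1 (4.30) rose. Cdx2, the factor that sets up the trophectoderm, was at 0.355, 0.674 and 0.812 scaled RPKM on day 3, against 1.54, 2.02 and 1.36 in ESCs and was not called, and Tfap2c fell (-1.43). Tpbpa, of the spongiotrophoblast, was at 0.00895, 0 and 0 scaled RPKM on day 3, against 0, 0 and 0 in ESCs. Elf5, a factor of trophoblast stem cells, was at 0.00975, 0.00288 and 0.00508 scaled RPKM on day 3, against 0.011, 0.00738 and 0.0228 in ESCs. The list therefore held markers that moved in opposite directions and defining trophoblast markers near 0.

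Several adhesion genes of epithelia rose while fibronectin fell. Of 20 listed genes of adhesion and epithelial-mesenchymal transition, 18 were tested, 8 rose, 2 fell and 8 were not called (median 0.87). Over all genes tested, 17.4% rose and 20.3% fell. Epcam, an epithelial adhesion molecule, was at 149, 159 and 147 scaled RPKM on day 3, against 20.2, 19.2 and 21.7 in ESCs (log2 change 2.87, SE 0.14, adjusted p = 1.8e-14). The claudins Cldn3 (3.94) and Cldn7 (4.68), Ocln (1.64), the splicing regulator Esrp1 (3.39) and Itgb1 (1.80) rose. Fibronectin (Fn1) was at 11.1, 5.85 and 8.25 scaled RPKM on day 3, against 146, 167 and 118 in ESCs (log2 change -4.05, SE 0.32, adjusted p = 5.2e-11), with the day 3 libraries far below ESCs. Cdh1 was at 109.7, 95.3 and 119.5 scaled RPKM on day 3, against 194, 212 and 176 in ESCs. Cdh2 was at 0.294, 0.233 and 0.309 scaled RPKM on day 3, against 0.256, 0.32 and 0.299 in ESCs, and neither was called. Twist1, a mesenchymal factor, rose (2.09), and Snai1 was not called (0.88). Vim fell (-1.08), but not without scaling (-0.99) or with quantile normalisation (-0.92).

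Of 19 listed genes of lateral and extraembryonic mesoderm, 18 were tested, 4 rose, 2 fell and 12 were not called (median 0.03), where 17.4% of all genes tested rose. Beside Hand1, the peripheral myelin protein gene Pmp22 was at 31.4, 16.8 and 13 scaled RPKM on day 3, against 0.0824, 0.147 and 0.199 in ESCs (4.93), and Plvap (1.59) and Spin2c (1.69) rose. Hand2, the neighbour of Hdn, was at 0.0162, 0.0072 and 0.00635 scaled RPKM on day 3, against 0.266, 0.101 and 0.0664 in ESCs. The mesoderm receptor genes Pdgfra, at 0.105, 0.0557 and 0.0476 scaled RPKM on day 3, against 0.0709, 0.0866 and 0.0579 in ESCs, and Kdr, at 0.0656, 0.00937 and 0 scaled RPKM on day 3, against 0.143, 0.171 and 0.133 in ESCs, were also near 0 in both stages. Contractile genes moved both ways. Of 16 listed, 14 were tested, 7 rose, 3 fell and 4 were not called (median 0.78), against 17.4% and 20.3% of all genes tested. The smooth muscle actin Acta2 was at 125, 64.6 and 49.8 scaled RPKM on day 3, against 0.0484, 0.317 and 0.539 in ESCs (6.58). The skeletal muscle actin Acta1 was at 157, 105 and 87.1 scaled RPKM on day 3, against 0.309, 0.452 and 0.871 in ESCs (6.80). Calponin (Cnn1) was at 34.2, 20.4 and 17.5 scaled RPKM on day 3, against 0.0158, 0.0872 and 0.188 in ESCs (5.31). All 3 were highest in day 3 replicate 1 and still above every ESC library in the others. Actins are near-identical, and how the authors' counting split shared reads is not given in the sources used here. Of the sarcomere genes of heart muscle, Actc1, at 9.42, 4.99 and 5.08 scaled RPKM on day 3, against 0, 0.0402 and 0.0138 in ESCs (3.70), Tnnc1 (2.67), Myl4 (1.53) and Myl3 (1.39) rose, and Tnni1 (-2.70) and Myl7 (-1.91) fell. The call of Myl3 was lost without ESC replicate 1 (1.39) or day 3 replicate 1 (1.19), and that of Myl7 without ESC replicate 1 (-1.83) or day 3 replicate 2 (-1.84) or 3 (-1.82). The heavy chain gene Myh6 was at 0.159, 0.0933 and 0.122 scaled RPKM on day 3, against 0.0407, 0.0752 and 0.0633 in ESCs, the troponin T gene Tnnt2 at 0.0148, 0.024 and 0.0154 scaled RPKM on day 3, against 0.0806, 0.0672 and 0.0633 in ESCs, both near 0. The troponin I gene Tnni3 fell to 0.352, 0.64 and 0.513 on day 3, against 3.55, 3.24 and 2.69 in ESCs (-1.87). Of 10 cardiac progenitor genes 7 were tested, and Irx4 rose (2.29) while Smarcd3 fell (-2.76); Nkx2-5 was at 1.35, 0.233 and 0.284 scaled RPKM on day 3, against 0.184, 0.441 and 0.351 in ESCs, with its highest value in day 3 replicate 1.

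Listed genes of other lineages moved both ways. Of 15 endothelial and blood genes, 9 were tested, 0 rose and 1 fell: Pecam1, which naive ESCs also express, was at 2.20, 2.08 and 1.83 scaled RPKM on day 3, against 19.6, 21 and 19.6 in ESCs (-3.02). Of 15 endoderm genes, 9 were tested, and 3 rose (Foxa2, Rbp4 and Dab2) and Hhex fell, where 17.4% of all genes tested rose and 20.3% fell. With a pseudocount of 1, Rbp4 (0.77), Dab2 (0.82) and Hhex (-0.96) were not called. The endoderm factor gene Sox17 was at 0.184, 0.22 and 0.2 scaled RPKM on day 3, against 0.366, 0.336 and 0.229 in ESCs. Of 12 neural genes, 5 were tested: Nes (2.44) and Fabp7 (1.10) rose, Tubb3 (-2.17) and Hesx1 (-2.46) fell, and Sox1, the neural plate marker, was at 1.37, 0.14 and 0.0895 scaled RPKM on day 3, against 1.13, 1.12 and 0.743 in ESCs. The Hhex call was lost without day 3 replicate 2 (-0.95) and that of Fabp7 without day 3 replicate 3 (0.98). Of 39 Hox genes, 15 were tested, 0 rose and 5 fell. The largest of these was Hoxc12, a gene of the posterior end of its cluster, at 0.222, 0.0164 and 0 scaled RPKM on day 3, against 9.91, 11.8 and 8.78 in ESCs (log2 change -4.21, SE 0.14, adjusted p = 1.1e-17). Hoxc13 was at 0.559, 0.0688 and 0.152 scaled RPKM on day 3, against 6.22, 7.24 and 5.47 in ESCs (-3.21). Transcripts of posterior HoxC genes were thus measurable in ESCs and nearly absent on day 3. Hoxd9 (-1.08) fell at the threshold and lost its call without ESC replicate 1 or 2 or day 3 replicate 2 or 3 (-1.06 to -0.99). The 10 genes of the two-cell-like state, an ESC subpopulation, were all under the filter; Zscan4c was at 0.579, 0.0446 and 0.0131 scaled RPKM on day 3, against 0.738, 0.639 and 0.666 in ESCs, with day 3 replicate 1 near the ESC libraries and the others far below. Of 15 germline genes repressed by methylation, 7 were tested and 4 rose. Day 3 replicate 1 was the highest of its group for 13 of the 15, against 33.4% of all genes tested. The other 2, Rhox6 and Rhox9, were highest in day 3 replicate 2. Among those that rose were Rhox6, at 69.1, 189 and 100.3 scaled RPKM on day 3, against 2.05, 2.17 and 2.25 in ESCs (5.37), Rhox9 (4.19) and the RNA helicase Ddx4 (1.89); Sycp3 lost its call without day 3 replicate 1 (0.92). Rhox6 and Rhox9 have close copies, so their split is uncertain.

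DNA methylation genes were lower on day 3 or not called. Of 11 tested, 5 fell and 0 rose (median -0.07), where 20.3% of all genes tested fell and 17.4% rose. Uhrf1, which brings the maintenance methyltransferase to replicating DNA, was at 55.6, 48.8 and 60.1 scaled RPKM on day 3, against 341, 363 and 302 in ESCs (log2 change -2.60, SE 0.18, adjusted p = 5.2e-12). That enzyme, Dnmt1, was at 24.7, 22.1 and 26.8 scaled RPKM on day 3, against 75.5, 83.1 and 65.8 in ESCs (log2 change -1.59, SE 0.19, adjusted p = 1.3e-07). The dioxygenases Tet1, at 0.926, 0.792 and 0.844 scaled RPKM on day 3, against 2.85, 3.34 and 3.86 in ESCs (-1.5), and Tet2 (-1.49) fell. With a pseudocount of 1, Tet2 was -0.97 and not called. The de novo cofactor Dnmt3l was at 22.9, 18.1 and 17.1 scaled RPKM on day 3, against 18.5, 22.1 and 17.9 in ESCs and was not called. Imprinted genes moved as a mixed group with large rises. Of 23 listed, 22 were tested, 11 rose, 2 fell and 9 were not called (median 1.14), against 17.4% and 20.3% of all genes tested. The maternally expressed H19 RNA was at 339, 429 and 259 scaled RPKM on day 3, against 0.827, 1.28 and 1.96 in ESCs (log2 change 7.55, SE 0.35, adjusted p = 3.6e-15). Its paternally expressed neighbour Igf2, a growth factor, was at 83.9, 185 and 129 scaled RPKM on day 3, against 0.452, 0.72 and 0.698 in ESCs (log2 change 6.82, SE 0.30, adjusted p = 1.5e-15). Both were near 1 scaled RPKM in ESCs and far above every ESC value on day 3. Cdkn1c, a cell cycle inhibitor, was at 17.4, 43.7 and 20.3 scaled RPKM on day 3, against 0.898, 0.904 and 0.875 in ESCs (4.19). Phlda2 was at 119, 207 and 107 scaled RPKM on day 3, against 8.05, 7.49 and 6.63 in ESCs (4.14). The retrotransposon-derived Peg10 was at 83.2, 118 and 69.3 scaled RPKM on day 3, against 2.02, 2.81 and 2.34 in ESCs (4.95). For Igf2, Cdkn1c, Phlda2 and Peg10, day 3 replicate 2 was the highest library. Meg3 (-1.55) and Plagl1 (-2.42) fell, and Igf2r (-0.80) and Mest (0.48) were not called. Dlk1 (1.29) lost its call without any ESC replicate or day 3 replicate 1 or 2, with values of 0.94 to 1.41.

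Glucose uptake and lactate export genes were raised with uneven changes in between. Of 16 glycolysis genes, 7 rose, 3 fell and 6 were not called (median 0.55), where 17.4% of all genes tested rose and 20.3% fell. Day 3 replicate 1 was the lowest of its group for 15 of the 16, and ESC replicate 3 for 13, against 30.9% and 47.3% of all genes tested. Slc2a1, the glucose transporter GLUT1, was at 479, 602 and 597 scaled RPKM on day 3, against 91.6, 93.6 and 81.5 in ESCs (log2 change 2.64, SE 0.17, adjusted p = 2.5e-12). The lactate exporter Slc16a3 was at 156, 207 and 226 scaled RPKM on day 3, against 3.53, 3.05 and 2.80 in ESCs (log2 change 5.75, SE 0.27, adjusted p = 4.4e-15). Pgk1 (1.68), Pfkl (1.71) and Ldha (1.36) rose, while hexokinases Hk1 (-2.12) and Hk2 (-2.39) and Pfkp (-2.56) fell. The stages did not overlap for any of these, nor for 80.2% of all genes tested. Tpi1 (1.07) lost its call without day 3 replicate 2 (0.99) or replicate 3 (0.98), and it and Aldoa with the same sum (0.84 and 0.996). Among 19 cell cycle genes, 3 rose and 5 fell (median -0.15), near the shares of all genes tested. Ccnd1, at 11.2, 8.53 and 11.3 scaled RPKM on day 3, against 30.7, 33.7 and 28.7 in ESCs (-1.55), Ccnd3 (-1.39), the replication helicase genes Mcm2 (-1.64) and Mcm5 (-1.61) and the inhibitor Cdkn1a (-1.40) fell, while Mki67 (2.24), Bub1 (1.78) and Ccnd2 (1.34) rose. With a pseudocount of 1, Ccnd2 was 0.86 and not called. Of 12 p53 targets, 6 rose and 3 fell (median 0.76), against 17.4% and 20.3% of all genes tested, so they moved both ways. The apoptosis genes Pmaip1, at 16.5, 15.3 and 14.4 scaled RPKM on day 3, against 0.961, 1.21 and 1.10 in ESCs (3.32), and Bbc3 (2.33) rose. Cdkn1a, named above among cell cycle genes and also a p53 target, fell (-1.40). Mdm2 was at 7.0, 6.56 and 6.51 scaled RPKM on day 3, against 6.63, 6.87 and 6.80 in ESCs and was not called (-0.02). Of 12 heat shock genes 1 rose, Hsp90aa1 (1.87), where 17.4% of all genes tested rose.

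Outside the lists, the largest rises included Car4, a membrane carbonic anhydrase, at 78.7, 85.9 and 85.5 scaled RPKM on day 3, against 0.011, 0.143 and 0.227 in ESCs (log2 change 7.08, SE 0.21, adjusted p = 2.9e-18). Others were the small heat shock protein Cryab (5.72), the secreted Vgf (5.72) and Enho (5.65) and the myosin light chain Myl9 (5.70). The largest falls included Fam25c, at 4.54, 1.62 and 1.21 scaled RPKM on day 3, against 218, 179.6 and 203 in ESCs (log2 change -6.25, SE 0.36, adjusted p = 2.2e-13). The aquaglyceroporin Aqp3 was at 2.47, 0.629 and 0.816 scaled RPKM on day 3, against 89.4, 86.6 and 77.3 in ESCs (-5.69). Others were the autophagy receptor Calcoco2 (-5.68), the peroxidase Gpx2 (-5.67), the keratin Krt42 (-5.49), the zona pellucida gene Zp3 (-5.21) and the muscle light chain Mylpf (-5.08). H2-M5, Nkx6-2, Rpl10l and Laptm5 fell by 4.94 to 5.28 on the log2 scale; Rpl10l has near-identical relatives and is uncertain. Ranked by scaled RPKM gained, among genes that were called, did not overlap between stages and had a gene name other than a Gm, Rik or pseudogene label, the leading ones beside keratins and mitochondrial genes were Mif, Lgals1, Actg1 (1.74) and Tuba1a (1.51). The cytokine Mif was at 2731, 3149 and 2633 scaled RPKM on day 3, against 1005, 945 and 903 in ESCs (1.57). The galectin Lgals1 was at 603, 1101 and 766 scaled RPKM on day 3, against 80.7, 82.8 and 78.9 in ESCs (3.30). Among the same genes ranked by scaled RPKM lost, Ckb, a creatine kinase, at 71.4, 75.1 and 55.6 scaled RPKM on day 3, against 888, 837 and 723 in ESCs (-3.60), Rpp25 (-4.54), Gpx1 (-1.15) and Tubb2b (-2.53) stood beside Dppa5a, Klf2, Trim28, Nanog and Mcm5. Epop (-1.45) was also among them, and its call was lost without ESC replicate 1 (-1.38), ESC replicate 2 (-1.23) or day 3 replicate 2 (-1.30). Genes at 0.1 scaled RPKM or less in all 3 ESC libraries and at 5 or more in all 3 day 3 libraries numbered 12, and 0 met the reverse. They included Fgf5, the ligand Wnt4 at 18.7, 24.5 and 16.4 scaled RPKM on day 3, against 0.00514, 0.0569 and 0.0638 in ESCs, Tmem54, the cytidine deaminase Cda at 14.7, 18.4 and 15.6 scaled RPKM on day 3, against 0, 0.0629 and 0.0862 in ESCs, Pxdc1, the motor Kif1a, Epn3, Ccdc194, the GTPase Gbp2 and Trim67.

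Mitochondrially encoded transcripts and the Y-linked Eif2s3y also rose, and here the wild-type ESC libraries stood apart. Of the 7 tested genes of the Y chromosome, 2 rose and 3 fell, against 17.4% and 20.3% of all genes tested. Of 15 mitochondrial genes 9 rose and 0 fell (median 1.25), and for each of these 9 the wild-type ESC mean was the lowest of the 10 stage and genotype means. Mt-Atp6, a subunit of ATP synthase, was at 2924, 2186 and 1562 scaled RPKM on day 3 and 277, 226 and 408 in wild-type ESCs (log2 change 2.87, SE 0.39, adjusted p = 5.5e-07), with day 3 replicate 1 the highest. Its mean was 1440.0, 1224 and 1237 on wild-type days 4, 5 and 6, and in mutants 1548 on day 3 and 1540.0 in ESCs. Mutant ESC replicates 1, 2 and 3 had mt-Atp6 at 673, 1957.5 and 1989, so replicate 1 lay well below the others. Mitochondrially encoded genes held 3.02, 6.39 and 6.22% of the summed RPKM in these mutant ESC libraries. Mt-Co3 (2.07) and mt-Cytb (1.67) rose and mt-Nd5 (-0.95) was not called; mt-Rnr1 lost its call without ESC replicate 2 (1.05) or day 3 replicate 2 (1.02), and mt-Co2 with quantile normalisation (0.89). In mutants 0 of the 15 rose and 2 fell, and the difference of the step between the genotypes was called for 10, each with a negative value (mutant minus wild type). Nuclear copies share sequence with these genes. The Y-linked translation factor gene Eif2s3y was at 3.86, 4.16 and 3.36 scaled RPKM on day 3, against 0.399, 0.255 and 0.45 in ESCs (log2 change 2.31, SE 0.26, adjusted p = 2.5e-08), and its means were 3.71 to 4.39 on the later wild-type days. In mutants its mean was 6.66 on day 3 and 12.1 in ESCs. The part of these ESC libraries' state in the other rises and falls was not tested.

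The mutant step uses none of the same libraries. On day 3, 2580 genes were higher in mutants than in mutant ESCs (18.2%) and 3061 lower (21.6%). Of the wild-type rises 1766 also rose in mutants, 71.47% of the wild-type and 68.45% of the mutant list, and of the falls 2260 also fell, 78.39% of the wild-type and 73.83% of the mutant list. In mutants 2 of the wild-type rises fell and 0 of the falls rose. All 18 naive genes fell in mutants too (median -4.54), 13 of 15 epiblast genes rose (median 1.95) and 10 of 18 streak genes rose (median 1.22). The step itself differed between the genotypes, in an interaction contrast of the same fit (mutant minus wild type), for 302 genes upward (2.13%) and 1049 downward (7.39%). Without mutant ESC replicate 1 the upward count was 547. That library stood apart from the other mutant ESC libraries: Epop had 1040.0, 180.1 and 161 scaled RPKM in mutant ESC replicates 1, 2 and 3, and Klf2 802, 145 and 136. H19 had 6.83, 8.51 and 5.90 scaled RPKM in mutant day 3 libraries and 1.84, 1.29 and 0 in mutant ESCs (difference -4.99, SE 0.49, adjusted p = 3.6e-07); with voom it was -2.98 and not called (adjusted p = 0.076). Rhox6 had 1.64, 5.03 and 2.33 in mutant day 3 libraries and 3.12, 2.17 and 1.03 in mutant ESCs (difference -4.98, SE 0.70, adjusted p = 1.9e-05). Neither reached its wild-type day 3 level in any of these 6 mutant libraries. Zfp42 had 2.74, 3.59 and 2.87 in mutant day 3 libraries and 209.9, 314 and 314 in mutant ESCs (difference -3.24, SE 0.23, adjusted p = 7.4e-09): mutant ESCs were above wild-type ESCs and mutant day 3 cells below wild-type day 3 cells.

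**Figure D5:**
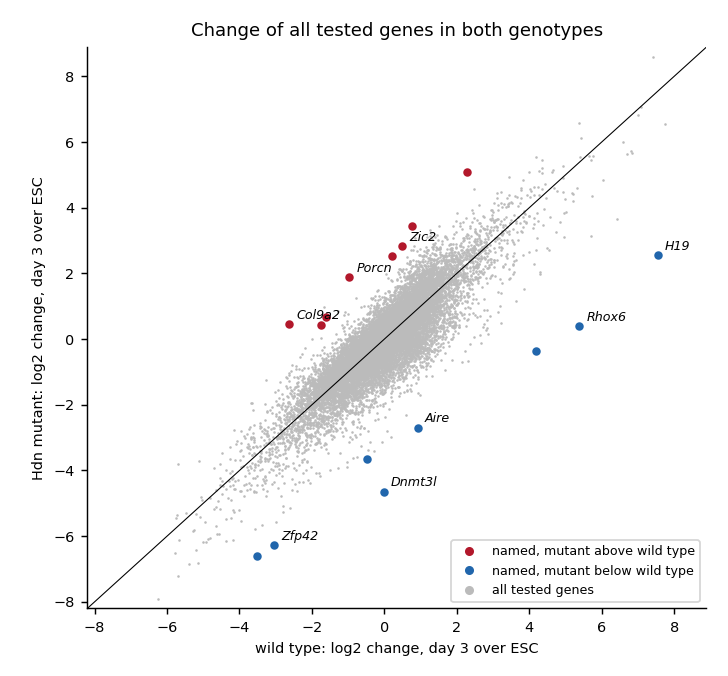
Log2 change, day 3 over ESC, of the 14196 tested genes in Hdn mutant cells (vertical) and wild-type cells (horizontal), with equal change on the black line. Named genes with the largest differences of the step lie above it (red, such as Col9a2, Porcn and Zic2) or below it (blue, such as H19, Rhox6, Dnmt3l, Aire and Zfp42).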

How the data were processed

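RNA-seq libraries were made with the ScriptSeq v2 low input kit, per the labels' protocols, in 30 samples (10 groups of 3). The deposited values are RPKM per gene, made by the authors; STAR, DESeq2 and mm10 are named in the submitters' processing notes, and the sources used here do not give the counting tool, annotation or use of strand. The 3 chromosome conformation samples and 1 heart sample were not used here.

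RPKM were divided by median-ratio size factors over 11618 genes (0.888 to 1.106). Genes at 1 scaled RPKM in at least 3 libraries (14196) were fitted as log2(scaled RPKM + 0.5) with limma 3.58.1 (R 4.3.3, trend) on all 30 libraries, 1 mean per group. A call required a log2 change of at least 1 beside a Benjamini-Hochberg adjusted p below 0.05. Every value above 0 was a whole multiple of 1 read (100.0%, tolerance 0.001), which gave read totals of 43339057 to 68448589 per library, and limma voom on these reads, chosen after seeing the data, called 3381 genes higher and 3348 lower in the wild-type step. Tables and figures used Python 3.11.15, pandas 2.3.3, numpy 2.4.6 and matplotlib 3.10.9; the fit was tested on simulated data.

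The 30 gene lists (446 genes) and the members were chosen with earlier results of these data known. The text names list genes, the 15 largest changes and the 10 largest in scaled RPKM in each direction (both among called genes whose stages did not overlap, leaving out pseudogenes and Gm, Rik and similar names), up to 10 switched genes and the 8 largest differences between genotypes in each direction; other genes were chosen after their values were seen. Of the genes these lists and rules picked, 2 are not reported here. Alternatives were other scalings, pseudocounts, filters and thresholds, only the libraries compared, a replicate block, voom and each replicate left out.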

Additional observations from a re-analysis of the deposited data

Results flagged for a closer look

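The step from ESC to day 3 differed between Hdn mutant and wild-type cells in a test of the difference itself (limma interaction contrast, Benjamini-Hochberg adjusted), for 302 genes upward and 1049 downward. The following log2 differences are mutant minus wild type, so that a positive one means a larger rise or smaller fall in mutants.

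Above 0 were Col9a2, a collagen chain (3.09), Porcn, which acylates Wnt proteins (2.85), the peptide ligand Apln (2.79), Mir6236 (2.68), Zic2 (2.33), Eras, a Ras of ESCs (2.31), Grrp1 (2.27) and Gsc (2.17). Apln was not called with voom (3.98, adjusted p = 0.099). Zic2 lost its call without any 1 of 7 libraries: wild-type ESC replicate 2, wild-type day 3 replicate 1 or 2, mutant ESC replicate 2 or 3 and mutant day 3 replicate 1 or 2 (2.12 to 2.26). Grrp1 lost it without wild-type day 3 replicate 1, mutant ESC replicate 2 or 3 or mutant day 3 replicate 3 (1.92 to 2.11).

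Below 0 were H19 (-4.99), the homeobox gene Rhox6 (-4.98), Dnmt3l (-4.63), Rhox9 (-4.56), the thymic regulator Aire (-3.61), Zfp42 (-3.24), Rex2 (-3.17) and the secreted phosphoprotein Spp1 (-3.06). H19 was not called with voom (-2.98, adjusted p = 0.076). Dnmt3l had 1.34, 1.90 and 2.91 scaled RPKM in mutant day 3 libraries and 61.8, 59.9 and 62.6 in mutant ESCs, and 22.9, 18.1 and 17.1 in wild-type day 3 libraries and 18.5, 22.1 and 17.9 in wild-type ESCs. Rhox6, Rhox9, Rex2 and Mir6236 have close copies or multiple loci, so how their reads were assigned is uncertain.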

How the results depend on the processing

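Counts of genes higher and lower on day 3 moved most with the threshold. On the adjusted p alone they were 4924 and 5305 in the wild type and 4745 and 5535 in mutants, with 1172 and 2186 for the difference of the step. With a log2 change of at least 2 they were 633 and 830 in the wild type and 854 and 981 in mutants, with 15 and 97 for the difference. With a filter of 5 scaled RPKM the lower counts were 1900 in the wild type, 1791 in mutants and 605 for the difference. With 0.05 and 10 scaled RPKM as levels, 0 genes were switched on. Leaving out 1 replicate gave 2253 to 2686 higher and 2762 to 3016 lower in the wild type, 2525 to 2705 and 2953 to 3146 in mutants, and 224 to 547 and 772 to 1454 for the difference, with 547 without Hdn mutant ESC replicate 1.

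Deviations from the stage mean in same-numbered ESC and day 3 libraries correlated at -0.134, -0.491 and -0.566. In differently numbered libraries they correlated at -0.156 to 0.514. Deviations from a mean of 3 libraries are not independent, so these values cannot show whether replicate numbers paired cultures. With the replicate block 2473 genes were higher and 2883 lower in the wild type, 2581 and 3064 in mutants, and 340 and 1069 differed. Of 401 listed or named genes tested, 229 were called, 28 of these lost the call under at least 1 alternative other than the threshold of 2 and 0 reversed in the wild-type step. The cause was not tested. Low genes are limited by depth: below 1 scaled RPKM a log2 change on this scale understates the change.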

Other observations

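By chromosome, genes on the X had a median log2 change of 0.43 on day 3 in the wild type, with 28.7% of 509 tested genes higher and 13% lower, against 17.4% and 20.3% of all genes tested. The medians of the autosomes lay between -0.19 and 0.21, and the X median in mutants was 0.19. These are descriptions over genes, with no test.

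The most abundant gene of the table on day 3 was Gm23935, with a mean of 24010 scaled RPKM on day 3 and 6814 in ESCs, and the 10 most abundant genes of each library held 12.5 to 13.6% of its summed RPKM on day 3 and 8.15 to 8.92% in ESCs. Of the 8 genes of mature heart and adult globin, all tested, 0 rose and 1 fell (Tnni3), against 17.4% and 20.3% of all genes tested. Of the listed Y-linked genes and Xist, the 2 tested, Eif2s3y and Ddx3y (1.30), both rose, where 17.4% of all genes tested rose. With a pseudocount of 1, Ddx3y was 0.92 and not called.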
